A study of Fundulus heteroclitus with 20 samples.

Results

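The genes of the Notch pathway and of the Hes and Hey families were followed in the adult mummichog (Fundulus heteroclitus), a killifish. The lesioned midbrain/diencephalon was compared with the contralateral, intact one. Whether Notch signaling drives each of the Hes and Hey genes was not tested. The genes were chosen by words in the gene descriptions of the count table, such as notch, jagged, delta-like protein, hairy, enhancer of split, transcription factor HES, mastermind, fringe and presenilin. The words found 22 of the 13679 genes of the table, and all 22 matched a gene of the RefSeq annotation by gene ID. All 22 had counts in each of the 20 libraries and passed the filter on low counts. No entry for a Notch receptor or a deltex gene was among them, so receptors are not analysed here. Of the 22 genes, 4 share a word with the pathway without being 1 of its core parts, and these are given apart.

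RNA-seq libraries came from both hemispheres of 10 fish at 1 h post-lesion. The lesioned hemisphere of each fish had been pierced through the optic tectum and tegmentum into the hypothalamus with a needle, and the other hemisphere of the same fish was the control. All fish were adults lesioned under 2-phenoxyethanol anesthesia, so the intact hemispheres come from injured animals and not from uninjured ones. The labels place each lesion on the right and each intact hemisphere on the left, whereas the study's methods divide the lesions equally between the sides. As labelled, side and lesion cannot be told apart.

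Notch signaling passes between cells that touch. A Delta or Jagged ligand on 1 cell binds a Notch receptor on its neighbor, presenilin in the gamma-secretase complex then cuts the receptor, and the freed fragment joins the DNA-binding protein RBPJ and a mastermind coactivator in the nucleus. Genes of the Hes and Hey families are the best known targets. They encode basic helix-loop-helix repressors that hold back the differentiation of neurons, and those of the Hes family recruit Groucho/TLE corepressors. In the brain of adult zebrafish, Notch signaling is known for keeping radial glia, the neural stem cells of these fish, from dividing.

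Between 9213580 and 11070103 counts per library fell on the listed genes. The study's methods report far more mapped reads per sample, so these totals are not the sequencing depth. The log2 ratio of the totals of lesioned over intact hemispheres was -0.01 ± 0.13 (SD over 10 fish, p = 0.770 by exact permutation of the signs, two-sided). The intact library of fish 3 stood apart on the first principal component (13.5% of variance), at 41.3, where the remaining intact libraries were at -22.4 to 10.3. The lesioned library of fish 3 was at 18.1, the highest of the lesioned libraries, with that of fish 2 next at 15.2. Calls below were therefore also made without each fish. Levels are CPM, the counts of a gene set to a common library size with TMM scaling, and a gene was called when its adjusted p-value was at most 0.1 or, more permissively, 0.4, the cutoffs of the study. Among markers of the tissue, 6 of 6 genes of neurons, 4 of 4 of oligodendrocytes and 5 of 5 of radial glia and astroglia had counts in every library. Bulk tissue was sequenced, so fewer cells of a type and less RNA per cell cannot be told apart.

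Of the 22 genes, 1 was higher in lesioned hemispheres (adjusted p at most 0.1, edgeR's quasi-likelihood test with fish as a block), and none was lower. This is 4.55% of the genes, beside 1.38% of all 10513 genes tested that were called in either direction and 1.28% that were higher. At 0.4 or less, 2 genes were higher and none was lower. The share is 9.09%, beside 10.1% of all genes tested that were called in either direction and 6.12% that were higher. These 2 were also the genes with an unadjusted p-value under 0.05, a threshold that 11.7% of all genes tested passed, and both encode factors of the Hes and Hey group. The median log2 fold change of the 22 genes was 0.0035, beside -0.00875 over all genes, and the median size of the change regardless of sign was 0.035, beside 0.049.

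**Figure D1:**
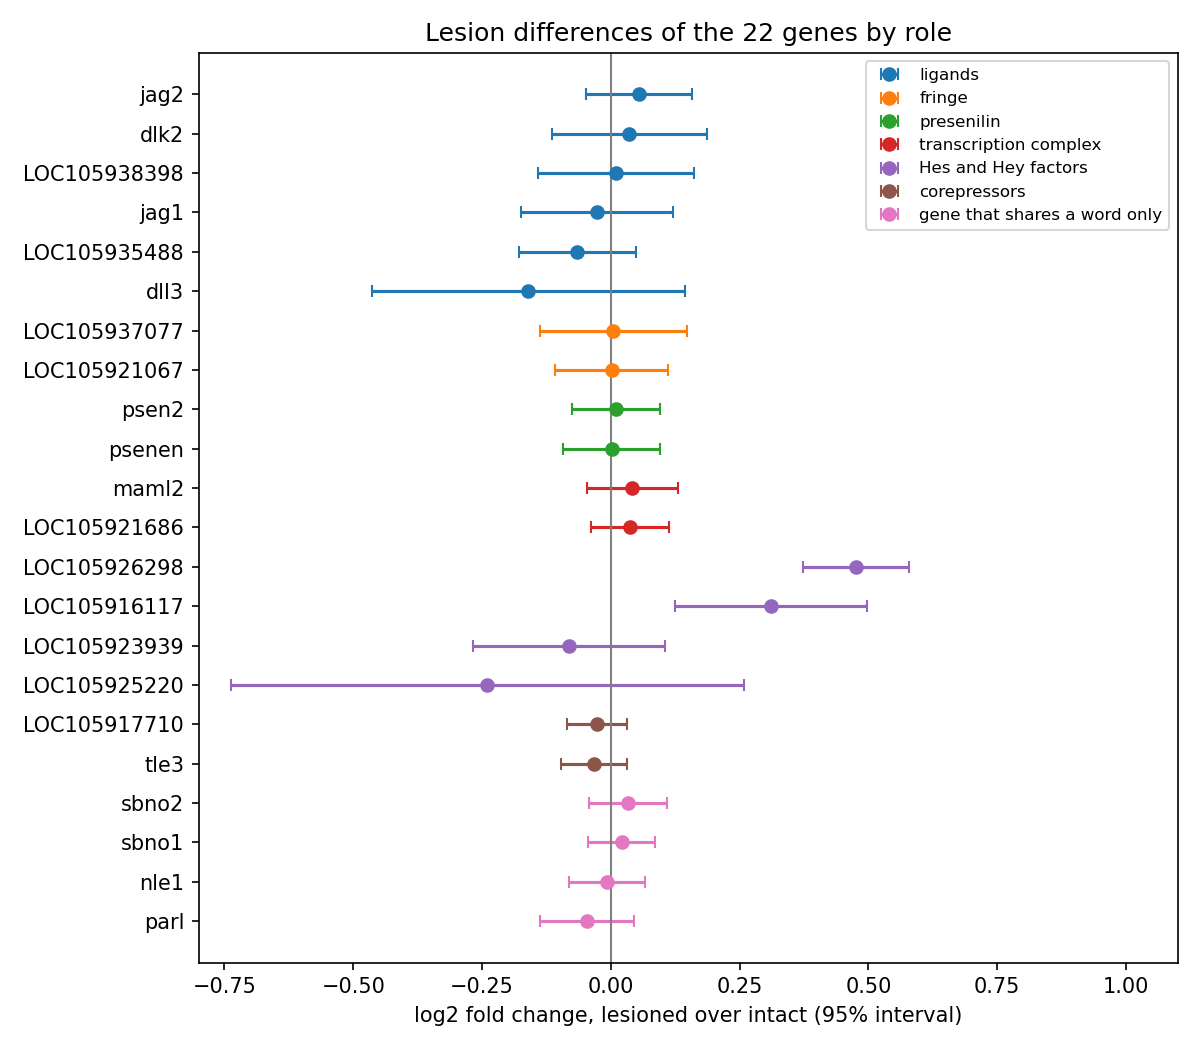
Points give the lesion difference of each of the 22 genes as a log2 fold change (lesioned over intact), grouped and colored by role, with bars for the 95% interval from edgeR's quasi-likelihood fit (n = 10 fish). LOC105926298 at 0.48 and LOC105916117 at 0.31 lie right of 0 with their whole intervals, and the intervals of the other 20 genes include 0.

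The gene higher at 0.1 was LOC105926298, described as a hairy/enhancer-of-split related protein with YRPW motif 1-like, thus a factor of the Hey group. Hey factors are repressors downstream of Notch, known in vertebrates above all from vessels, heart and neural progenitors. In lesioned hemispheres its lowest, median and highest levels were 43.6, 61.2 and 85.5 CPM, against 25.2, 45.4 and 73.3 CPM in intact hemispheres. The groups overlapped, as they did in all but 0.0666% of the genes tested, with 2 lesioned libraries above the highest intact one and 4 intact libraries below the lowest lesioned one. Within fish the order was always the same, and the lesioned hemisphere was higher in 10 of 10 fish. Such agreement was seen in 1.07% of all genes tested, and LOC105926298 was the only 1 of the 22 genes to have it. The fitted log2 fold change was 0.48 (standard error 0.05), a 1.39-fold higher level (95% interval, 1.30 to 1.49), with an adjusted p = 0.000127 in edgeR's quasi-likelihood test. It ranked 11 of the 10513 genes by p-value. Flipping the signs of the fish ratios in all patterns (exact permutation, two-sided) gave p = 0.00195, unadjusted and 1 of 22 such tests. This is the lowest value 10 fish can reach, and it follows from the shared direction of all 10 ratios. Without fish 3 the log2 fold change was 0.50 (adjusted p = 0.000153, edgeR).

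Single fish ranged from 0.20 in fish 4 to 0.78 in fish 2 in the log2 ratio of LOC105926298. Fish 4 had the highest intact level and fish 2 the lowest. The intact level is also part of the ratio, so this does not show that the ratio depends on it. The difference in CPM, lesioned minus intact, was 9.70 in fish 3, 26.7 in fish 7 and 16.8 in the median of the 10 fish. The level of this gene also differed between fish. Fish means of both hemispheres spread with an SD of 0.39 on the log2 scale, whereas the ratio within fish had an SD of 0.16. Across fish, the levels in lesioned and intact hemispheres had Pearson's r = 0.946 and Spearman's rho = 0.891 (n = 10 fish, given as a description), and 4.34% of all genes had an r as high. When the fish was not a term of the model, this spread entered the error. Without the replicate block the log2 fold change was 0.46 with a standard error of 0.16, and the call was lost (adjusted p = 0.851).

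**Figure D2:**
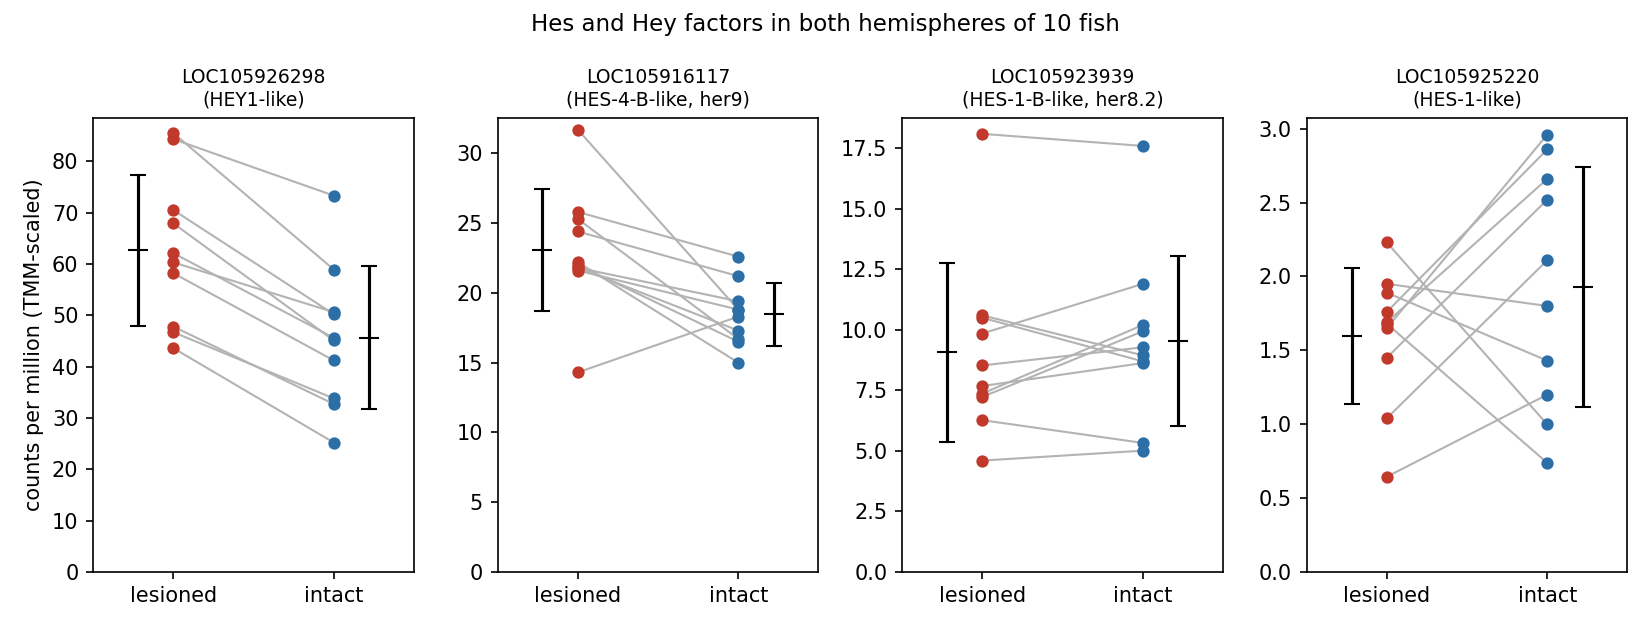
Each panel shows the level of 1 Hes or Hey factor in CPM, with points for the lesioned (left, red) and intact (right, blue) hemisphere of each fish, a gray line joining both hemispheres of a fish, and bars for mean ± SD (n = 10 fish). Every line of LOC105926298 falls toward the intact side, 9 of 10 do so for LOC105916117, and the lines of the other genes cross.

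LOC105916117 is described as transcription factor HES-4-B-like, and RefSeq names it her9. In zebrafish, her9 is a Hes-type repressor of neural progenitors. Its levels were 14.3, 22.1 and 31.7 CPM (lowest, median, highest) in lesioned hemispheres, against 15, 18.6 and 22.6 CPM in intact hemispheres. The lesioned hemisphere was higher in 9 of 10 fish, and the intact range lay inside the lesioned one. The log2 fold change was 0.31 (standard error 0.09), a 1.24-fold higher level (95% interval, 1.09 to 1.41), with an adjusted p = 0.161 in edgeR's quasi-likelihood test, so it passed 0.4 and missed 0.1. The sign-flip test over the 10 fish gave a two-sided exact p = 0.0156, unadjusted and 1 of 22 such tests. The single fish that went the other way was fish 2, with a log2 ratio of -0.35. Without fish 2 the log2 fold change was 0.38 and the gene passed 0.1 (adjusted p = 0.0139, edgeR). Leaving out the only fish against the direction favors a call, so this fit adds no support. With any other single fish left out, the gene missed 0.1 (adjusted p from 0.176 to 0.344, edgeR). Without the replicate block it passed neither cutoff (adjusted p = 0.585).

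Fish 2, the lowest for LOC105916117, had the highest ratio for LOC105926298. The ratios of these genes across the 10 fish had Pearson's r = -0.429 and Spearman's rho = -0.164, given as a description. The ratios of both genes were also set beside the size of the overall response, as a description. Against the median ratio of the other genes called higher at 0.1, r was -0.363 (rho -0.515) for LOC105926298 and -0.03 (rho -0.042) for LOC105916117, again over 10 fish of which both measures share the libraries.

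The remaining Hes factors passed neither cutoff. LOC105923939, described as HES-1-B-like and named her8.2 in RefSeq, had 4.60, 8.10 and 18.1 CPM in lesioned hemispheres, against 5.01, 9.12 and 17.6 CPM in intact hemispheres. Both of its highest values belonged to fish 3. The log2 fold change was -0.08 (95% interval, -0.27 to 0.11; adjusted p = 0.780, edgeR). LOC105925220, described as HES-1-like, had the fewest counts of the 22 genes, 7 to 30 per library. It had 0.644, 1.68 and 2.23 CPM in lesioned hemispheres, against 0.738, 1.96 and 2.96 CPM in intact hemispheres. Its log2 fold change of -0.24 had an interval from -0.74 to 0.26 (adjusted p = 0.747, edgeR), which includes changes in both directions, and its ratios within fish ran from -0.90 to 1.02.

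The responses of these factors were also set side by side within fish. The pairs were chosen after their values had been seen, so the differences are a description without a test. The log2 ratio of LOC105926298 minus that of LOC105923939 was 0.56 ± 0.34 (SD over 10 fish) and was positive in 10 of 10 fish. Minus that of LOC105925220 it was 0.67 ± 0.81 and positive in 8 of 10 fish, and minus that of LOC105916117 it was 0.18 ± 0.41 and positive in 7 of 10 fish.

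Markers of cell types were set beside these values. Of 7 endothelial genes, 1 was higher and none lower at 0.1, beside 1.28% and 0.0951% of all genes tested. At 0.4, 1 was higher and 2 were lower, beside 6.12% and 3.97% of all genes tested. Summed levels were 641 to 809 CPM in lesioned and 596 to 813 CPM in intact hemispheres. The higher gene was LOC105915527, described as claudin-5-like (log2 fold change 0.59, adjusted p = 0.00891, edgeR). For cadherin-5-like LOC105933301, kdr, flt1 and tie1, the log2 fold changes were -0.03 to 0.02. The genes lower at 0.4 were the other claudin 5 gene, cldn5, at -0.13 (adjusted p = 0.353, edgeR), and egfl7, at -0.10 (adjusted p = 0.381). Of 5 radial glia and astroglia genes, none was called at 0.1, 2 were lower at 0.4 (LOC105930872, a Sox-9-A-like gene, and the nestin-like LOC105917780), and their sums were 6235 to 10262 CPM in lesioned and 7243 to 10781 CPM in intact hemispheres. None of these markers was at 0 in any library. In the microglia list, 1 of 6 genes, gpr34, was lower at 0.1, beside 0.0951% of all genes tested. At 0.4, 4 of 6 were lower, beside 3.97% of all genes tested, and none was higher. The median log2 fold change of the list was -0.15 (summed levels of 133 to 211 CPM in lesioned and 133 to 251 CPM in intact hemispheres). Of 4 oligodendrocyte genes and 6 neuron genes, none was called at 0.1. At 0.4, 1 oligodendrocyte gene was lower and 1 neuron gene was higher, beside 3.97% and 6.12% of all genes tested. The 1 erythrocyte gene tested was higher at 0.4 (log2 fold change 0.61), beside 6.12% of all genes tested. Summed levels of the 2 erythrocyte genes listed were low, 3.3 to 12.1 CPM in lesioned and 2 to 13.8 CPM in intact hemispheres. None of 3 genes of cycling cells was called. The part of any of these cells in the 2 higher Hes and Hey genes was not tested.

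Among the ligands, 6 genes were tested and none passed 0.4. The most counted, jag2, a Jagged ligand, had 50.6, 95.6 and 129 CPM (lowest, median, highest) in lesioned hemispheres, against 53.4, 98.6 and 112 CPM in intact hemispheres. The log2 fold change was 0.05 (95% interval, -0.05 to 0.16; adjusted p = 0.711, edgeR), and 5 of 10 fish were higher. As for LOC105926298, the spread between fish means of jag2 (SD 0.34) was larger than that of its ratio within fish (SD 0.17). A second gene described as jagged-2-like, LOC105935488, had 20.5, 28.0 and 32.6 CPM in lesioned and 25.3, 27.7 and 33.6 CPM in intact hemispheres (log2 fold change -0.06, 95% interval -0.18 to 0.05). The third Jagged gene, jag1, had 31.5 to 51.0 CPM in lesioned and 32.7 to 58.7 CPM in intact hemispheres (log2 fold change -0.03, 95% interval -0.17 to 0.12).

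Of the Delta-type ligands, LOC105938398, described as delta-like protein 4, had 20.9 to 30.5 CPM in lesioned and 20.3 to 30.1 CPM in intact hemispheres. Its log2 fold change was 0.01 (95% interval, -0.14 to 0.16). The gene listed as dll3 is named dlc in RefSeq, a Delta gene of zebrafish. It had 2.69, 3.53 and 9.02 CPM in lesioned hemispheres, against 2.59, 4.40 and 7.30 CPM in intact hemispheres, and a log2 fold change of -0.16 whose interval ran from -0.46 to 0.14. Fish 5 was the highest and fish 3 the lowest in the mean of both hemispheres. For dlk2, a non-canonical ligand without the Delta motif of the others, levels were 7.60 to 12.9 CPM in lesioned and 6.34 to 14 CPM in intact hemispheres, and 5 of 10 fish were higher. The ligands thus had log2 fold changes between -0.16 and 0.05.

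Fringe enzymes add sugars to Notch receptors and alter which ligand they answer to. LOC105921067, lunatic fringe-like (lfng in RefSeq), had 55.2, 69.2 and 81.5 CPM in lesioned hemispheres, against 54.6, 66.8 and 82.0 CPM in intact hemispheres, with 5 of 10 fish higher. Its log2 fold change had an interval of -0.11 to 0.11, and its sign changed with the scaling. LOC105937077, manic fringe-like (mfng in RefSeq), had 11 to 16 CPM in lesioned and 10.6 to 16 CPM in intact hemispheres (95% interval of the log2 fold change, -0.14 to 0.15).

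The presenilin group covers the protease that releases the Notch fragment. For psen2, a catalytic subunit of gamma-secretase, levels were 59.2, 63.4 and 69.3 CPM in lesioned hemispheres, against 56.6, 63.0 and 69.5 CPM in intact hemispheres. Its log2 fold change was 0.01 (95% interval, -0.07 to 0.10) and turned negative with upper quartile scaling. For psenen, a small subunit of the same complex, 32.2 to 40.8 CPM were found in lesioned and 33.1 to 42.1 CPM in intact hemispheres (95% interval, -0.09 to 0.10). These were among the least variable of the 22 genes, with an SD between fish means of 0.05 for psen2 and 0.08 for psenen on the log2 scale.

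In the transcription complex, LOC105921686, the gene like RBPJ (rbpja in RefSeq), had 42.3, 50.5 and 55.7 CPM in lesioned hemispheres, against 39.7, 49.7 and 56.1 CPM in intact hemispheres. Its log2 fold change was 0.04 (95% interval, -0.04 to 0.11). The coactivator maml2 had 47.6, 52.2 and 66.0 CPM in lesioned hemispheres, against 46.6, 50.7 and 59.2 CPM in intact hemispheres, with 8 of 10 fish higher. Its log2 fold change of 0.04 (95% interval, -0.05 to 0.13) did not pass either cutoff (adjusted p = 0.753, edgeR). The genes grouped as corepressors passed no cutoff either, among them tle3, of the Groucho/TLE type that Hes factors recruit. For tle3, 96.0 to 129 CPM were found in lesioned and 94.6 to 126 CPM in intact hemispheres, with 7 of 10 fish lower (log2 fold change -0.03, 95% interval -0.10 to 0.03). LOC105917710, like the amino-terminal enhancer of split, a short Groucho-type protein, had 58.8 to 86.5 CPM in lesioned and 62.0 to 90.4 CPM in intact hemispheres, also with 7 of 10 fish lower (log2 fold change -0.03, 95% interval -0.09 to 0.03).

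The genes that share a word with the pathway passed no cutoff. These are sbno1 and sbno2, which are named after the fly gene strawberry notch, nle1, whose protein acts in ribosome assembly, and parl, a rhomboid protease of mitochondria. Their log2 fold changes lay between -0.05 and 0.03. With only the other 18 genes, the counts of calls were the same, 1 at 0.1 and 2 at 0.4.

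Of the 20 genes that passed no cutoff, adjusted p-values were 0.687 to 0.997 and log2 fold changes -0.24 to 0.05. For 18 of them the 95% interval of the log2 fold change lay between -0.27 and 0.19. The exceptions were the weakly counted LOC105925220 and dll3, whose intervals reached further.

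**Figure D3:**
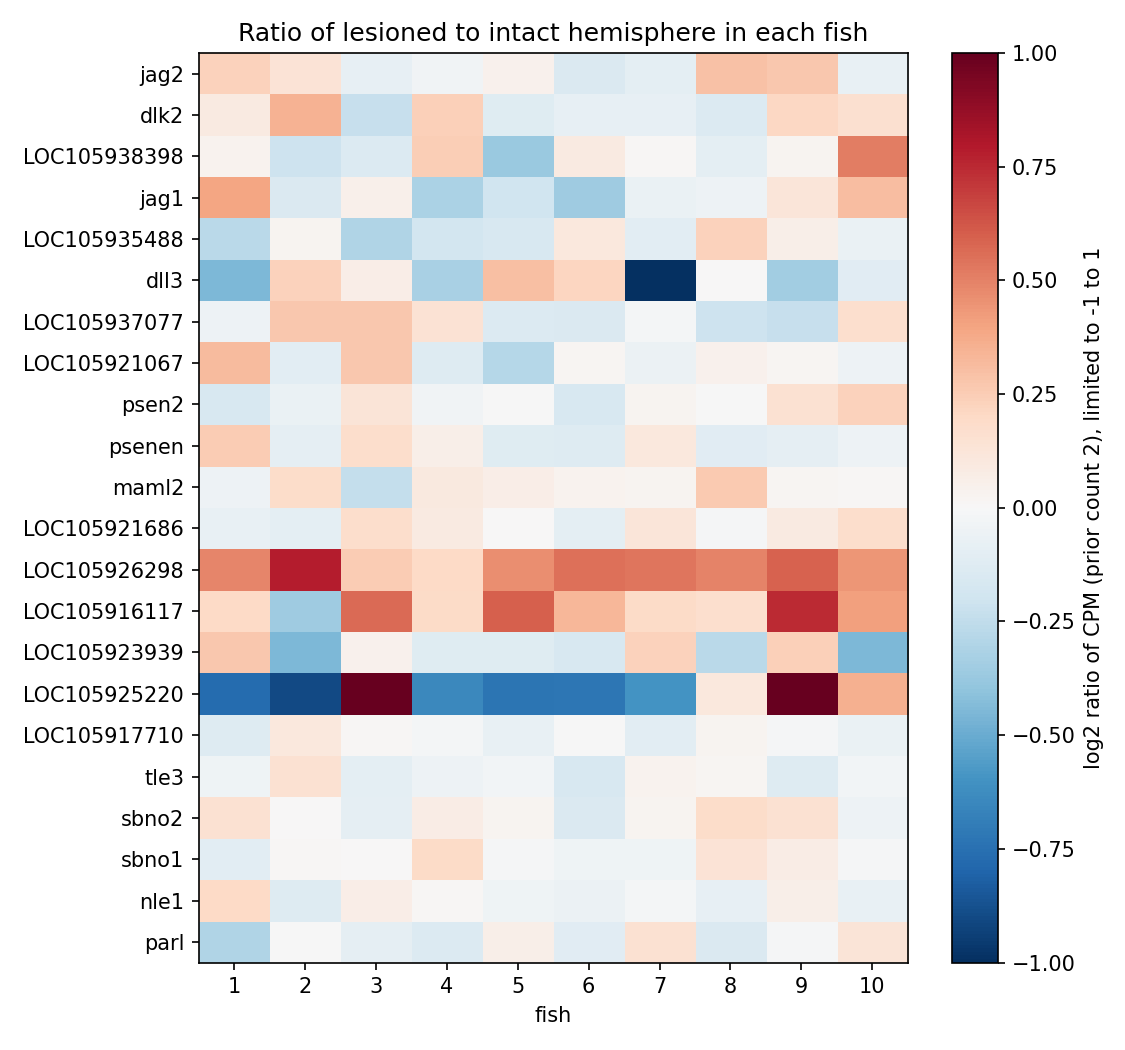
Each row is a gene and each column a fish, and the color gives the log2 ratio of CPM in the lesioned over the intact hemisphere, limited to -1 to 1 (red, higher in lesioned; blue, lower). LOC105926298 is red in all 10 fish and LOC105916117 in 9, while the other rows hold both colors.

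Fish differed in the genes of the pathway to unequal extents. Lesioned and intact levels correlated at r above 0.5 across the 10 fish for 12 of the 22 genes (median r 0.55), beside 59.2% of all genes tested (median 0.593), so these genes were not set apart as a group. The spread between fish means was largest for LOC105923939 (SD 0.50 on the log2 scale), dll3 (0.44), LOC105925220 (0.39) and LOC105926298 (0.39), and smallest for sbno1 (0.04). For LOC105925220, with 7 to 30 counts per library, the SD of the ratio was 0.75, and both hemispheres hardly correlated across fish (r = 0.033, rho -0.164). A ratio of 2 unrelated libraries spreads more than their mean, so this SD does not show that hemispheres differed more than fish.

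**Figure D4:**
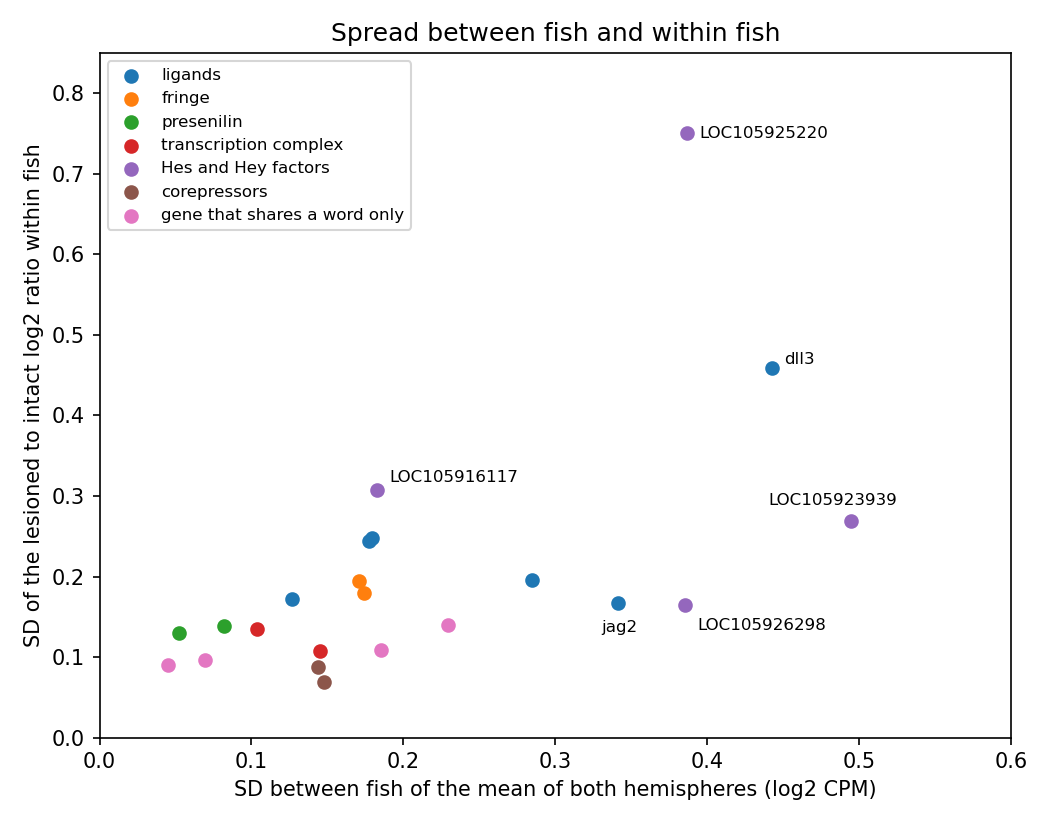
For each of the 22 genes, the SD between fish of the mean of both hemispheres (x axis, log2 CPM) is plotted against the SD of the log2 ratio of lesioned over intact within fish (y axis), colored by role. LOC105926298 (0.39 and 0.16) and jag2 (0.34 and 0.17) have a larger SD between fish means than of the ratio. The SD of the ratio leaves out its mean, which was 0.48 for LOC105926298. LOC105925220 (0.39 and 0.75) had 7 to 30 counts per library, and its hemispheres hardly correlated across fish (r = 0.033).

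Other genes of the pathway, which the words above do not find, were taken from a list of enzymes, adaptors and cofactors. This list also holds neurl2, neurl4 and c1d, which only share a word. Of its 31 genes, 30 were tested. None was lower at 0.1 (0.0951% of all genes tested), and 1 was higher (1.28% of all genes tested). This was ep300, which encodes the acetyltransferase p300, a cofactor of the Notch complex and of many other transcription factors. Its levels were 127, 140 and 165 CPM (lowest, median, highest) in lesioned hemispheres, against 124, 129 and 147 CPM in intact hemispheres. It was higher in 10 of 10 fish, and 1.07% of all genes tested had the same direction in every fish. The log2 fold change was 0.10 (standard error 0.03, adjusted p = 0.0885, edgeR), a 1.08-fold higher level. The call was kept in 4 of 17 other fits. At 0.4, 3 genes of the list were higher (neurl4, which only shares a word, among them) and 2 lower, beside 6.12% and 3.97% of all genes tested.

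The others that passed 0.4 changed by little. LOC105930854, p300-like, had 160 to 191 CPM in lesioned and 144 to 180 CPM in intact hemispheres (log2 fold change 0.10, adjusted p = 0.203). For neurl4, named after the ligand regulator neuralized, levels were 129 to 173 CPM in lesioned and 117 to 171 CPM in intact hemispheres (log2 fold change 0.08, adjusted p = 0.330). Lower were poglut1, whose enzyme puts glucose on Notch receptors, with 6.47 to 9.43 CPM in lesioned and 6.98 to 10.9 CPM in intact hemispheres (log2 fold change -0.26, adjusted p = 0.204), and aph1a, a gamma-secretase subunit, with 42.8 to 52.2 CPM in lesioned and 46.9 to 52.1 CPM in intact hemispheres (log2 fold change -0.09, adjusted p = 0.339). The sheddases of the ADAM group, nicastrin, mib2, numbl, itch, ncor1, hdac1 and the other genes of the list passed neither cutoff in edgeR's quasi-likelihood test. The median log2 fold change of the 30 genes was 0.02.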

How the data were processed

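Per the study's methods and labels, cutadapt removed adapters, STAR placed the reads on the Fundulus_heteroclitus-3.0.2 genome and HTSeq assigned them to genes. The labels name a SMART-Seq v4 kit and the methods a TruSeq kit. The strand setting and the treatment of reads from near-identical genes are not given in the sources used here. The deposited values are raw counts, 1 column for each hemisphere, neither scaled nor pooled. The columns of the authors' own DESeq2 comparison (mean, log2 fold change, standard error, statistic, p-values) were not used.

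Of 16264 entries, 2585 transfer RNAs were left out (at most 0.00458% of the gene counts of a library), and 10513 of 13679 genes passed the filterByExpr function of edgeR (10 counts as the minimum, 15 in total). The tests ran in edgeR 4.0.16 under R 4.3.3 (TMM, quasi-likelihood, fish as a block), with Benjamini-Hochberg adjustment over all genes tested. Standard errors and 95% intervals come from the quasi-likelihood F statistic and cover 1 gene at a time. For ratios within fish, 2 prior counts were added before log2 CPM were subtracted, and all 1024 patterns of signs were enumerated. The alternatives were no block, 3 other scalings, 2 other filters, DESeq2 1.42.0, each fish left out and the pathway genes alone. The fit was tested on simulated data. Both hemispheres come from 1 animal, and after subtracting group means they correlated at 0.385 to 0.731 across genes, against -0.207 to 0.201 between different fish. Libraries held 9213580 to 11070103 counts on the listed genes, so a gene at 1 CPM has about 10 counts.

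The genes, lists and cutoffs were chosen with earlier results of these data known. Genes with an adjusted p-value of 0.4 or less and the most counted gene of each role were to be described in full, the others by range. Cell type lists named more markers than the table listed, and only those found are counted. The word list of other pathway genes also took in neurl2, neurl4 and c1d, which only share a word. RefSeq names come from the MU-UCD_Fhet_4.1 assembly, which is not the authors' assembly, so no coordinates are given. Sequences were not used here.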

Additional observations from a re-analysis of the deposited data

Results flagged for a closer look

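In 66 groups of 10 values (lesioned CPM, intact CPM and log2 ratio of each of the 22 genes), 6 held a value far from the others. For independent, normally distributed values, chance alone would place such a value in about 1 group in 20, or 3.30 groups. The groups here share libraries, the CPM are not logged and the ratios come from the same values, so this number is only a rough guide. In LOC105916117 the log2 ratio of fish 2 was -0.35, where the other fish had 0.16 to 0.74. In dll3 the log2 ratio of fish 7 was -1.24, where the others had -0.45 to 0.30. LOC105923939 had 18.1 CPM in the lesioned hemisphere of fish 3, where the other lesioned hemispheres had 4.60 to 10.6 CPM, and its intact hemisphere was as high (17.6 CPM). The level of maml2 in the lesioned hemisphere of fish 2 was 66.0 CPM, against 47.6 to 55.9 CPM in the others. Fish 5 was high for sbno2 on both sides, with 72.2 CPM in the lesioned hemisphere (others 45.8 to 58.3 CPM) and 70.8 CPM in the intact one (others 43.5 to 58.1 CPM). Causes were not tested.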

How the results depend on the processing

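Over all genes tested, 145 were called at 0.1 and 1060 at 0.4 in the main fit, and 57 and 88 without the replicate block. Of the 22 genes, 0 were called at 0.1 and 0 at 0.4 in edgeR without the block (2 had an unadjusted p under 0.05). LOC105926298 then had a log2 fold change of 0.46. Its direction held in all 17 other fits (0.45 to 0.51 with a fish left out). Its call at 0.1 held in 16 of them, with adjusted p from 4.62e-12 (DESeq2) to 0.00083 (edgeR without fish 8). The call was lost without the block (adjusted p = 0.851, edgeR). With a fish left out, 1 to 2 of the 22 genes were called at 0.1 and 2 to 3 at 0.4. The second gene at 0.1 was LOC105916117 without fish 2 (0.38), the only fish against its direction. Over all genes, these fits called 101 to 216 at 0.1 and 279 to 2066 at 0.4. Of the other pathway genes, 0 were called at 0.1 without the block, with total counts, with upper quartile scaling, with no filter, with a filter of 1 CPM in 10 libraries and with DESeq2 (4 to 5 had an unadjusted p under 0.05 in these fits), and 0 to 3 with a fish left out. The 3 without fish 3 were ep300, LOC105930854 and poglut1, in a fit that called 212 of all genes at 0.1. The median log2 fold change of the 22 genes ran from -0.02 to 0.02. Values near 0 changed sign. That of LOC105921067 was -0.0031 without the block, -0.0068 with total counts, -0.0114 with upper quartile scaling and -0.0321 to 0.0346 with a fish left out. That of psen2 was -0.0028 with upper quartile scaling and -0.0138 to 0.0303 with a fish left out. LOC105925220 had 7 to 30 counts per library and dll3 26 to 98, and these genes had the widest intervals of the 22. The part of depth in this was not tested.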

Other observations

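Relatives of the Hes and Hey factors whose descriptions hold none of the words searched were looked up after the values above had been seen. The repressor gene bhlhe40, which also belongs to the circadian clock, had 460, 544 and 724 CPM (lowest, median, highest) in lesioned hemispheres, against 381, 484 and 571 CPM in intact hemispheres. It was higher in 10 of 10 fish, and 1.07% of all genes tested had the same direction in every fish. The difference was 0.21 on the log2 scale (standard error 0.03, adjusted p = 0.00351 in edgeR's quasi-likelihood test). The call was kept in 16 of 17 other fits and lost without the replicate block. Its paralog bhlhe41 had 94.8 to 148 CPM in lesioned and 80.9 to 151 CPM in intact hemispheres (log2 fold change 0.18, adjusted p = 0.158, higher in 9 of 10 fish). For helt, a Hes-related gene known from the midbrain of mice, the log2 fold change was 0.29 (adjusted p = 0.290, higher in 8 of 10 fish) at 5.89 to 11.3 CPM in lesioned and 4.94 to 8.30 CPM in intact hemispheres. LOC105916674, described as transcription cofactor HES-6-like, differed by -0.12 on the same scale (adjusted p = 0.816), and the radical fringe gene rfng had 0.03 (adjusted p = 0.932).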
